A study of Mus musculus with 21 samples.

Results

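The NF-kB subunits and their inhibitors are described here in cultured mouse macrophages. They are 10 genes taken by symbol from a fixed list: the subunits Nfkb1, Nfkb2, Rel, Rela and Relb, and the inhibitors Nfkbia, Nfkbib, Nfkbie, Nfkbiz and Tnfaip3. All 10 were found among the 50645 genes of one expression table and the 50644 genes of the other. The cells were macrophages grown from the bone marrow of C57Bl6/J mice, with a donor age of 24 weeks per the labels. Their medium held supernatant of L929 cells, a fibroblast line that secretes macrophage colony-stimulating factor. Marrow came from donors on standard chow or on a Western diet (high in fat, in sugar and in cholesterol), each fed for 24 weeks. RNA-seq gave 21 libraries in 7 groups of 3.

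In the fatty acid table, all 12 libraries came from chow-fed donors. The groups were untreated cells, cells given 100 ng/ml lipopolysaccharide (LPS) for 24 h on day 7, cells grown for the first 4 days in 10 mM fatty acid (palmitic to oleic acid at 1:3) and then given the same LPS, and cells that also received 200 nM TAK242 during those 4 days before LPS. LPS is a cell wall component of Gram-negative bacteria that is sensed by the receptor TLR4, and TAK242 is an inhibitor of TLR4. The pretreatment was washed off before LPS, so neither the fatty acid nor TAK242 was added again with the stimulus. The table has no group given fatty acid or TAK242 without LPS, and none given TAK242 and LPS without fatty acid. A difference with TAK242 therefore cannot be told apart from an effect of TAK242 on its own. In the Western diet table, 9 libraries were labelled as untreated chow cells (replicates 4 to 6), untreated Western diet cells and LPS-treated Western diet cells. Whether the numbered replicates are animals or cultures is not given in the labels, so the p-values measure only the spread between these libraries, which may be technical.

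NF-kB is a family of dimeric transcription factors that switch on inflammatory genes. In resting macrophages the dimers are held in the cytoplasm by IkB proteins. A signal from TLR4 activates the IkB kinase, IkB is degraded, and the freed dimers enter the nucleus. Nfkb1 and Nfkb2 encode precursors whose C-terminal part acts like an IkB until it is removed, and Rela, Rel and Relb carry the domain that activates transcription. Nfkbia, Nfkbib and Nfkbie encode IkB alpha, IkB beta and IkB epsilon. Nfkbiz encodes IkB zeta, a nuclear member that helps switch on a set of secondary response genes, and Tnfaip3 encodes the ubiquitin-editing enzyme A20, which ends the upstream signal. Several of these genes are themselves known NF-kB targets, which closes a feedback loop in macrophages.

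In the deposited coordinates on GRCm38, most of which equal those of GENCODE M21, the members lie on 8 chromosomes. Nfkb1 is on chromosome 3 (135584655 to 135691547), Rel on 11 (23736847 to 23770970), and Rela and Nfkb2 are on 19 (5637483 to 5648130 and 46304737 to 46312090). Relb and Nfkbib are on 7 (19606217 to 19629438 and 28758251 to 28767512). Nfkbia is on 12 (55489410 to 55492647), Nfkbie on 17 (45555716 to 45563169), Nfkbiz on 16 (55811375 to 55838899) and Tnfaip3 on 10 (19000910 to 19015657).

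The DNA before the gene starts is shown for 3 members, because these stretches hold matches to the kappaB consensus, the letter pattern of sites that NF-kB dimers bind. They also lie outside the annotated exons of each gene apart from 1 base for Rel. RefSeq promoter sequence of GRCm38.p6 was at hand for 7 of the 10 members, in 10 windows of 250 bases before to 50 bases after an annotated start. Each line gives the 250 bases before the start, 5′ to 3′ on the gene's strand, with matches to the kappaB consensus in capitals.
Nfkbia, chr12:55492648-55492897, minus strand: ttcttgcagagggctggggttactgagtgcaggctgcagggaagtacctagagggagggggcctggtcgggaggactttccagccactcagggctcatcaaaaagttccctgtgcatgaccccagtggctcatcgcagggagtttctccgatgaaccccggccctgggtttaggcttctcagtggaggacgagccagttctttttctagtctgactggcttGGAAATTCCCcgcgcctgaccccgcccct
Nfkbie, chr17:45555450-45555699, plus strand: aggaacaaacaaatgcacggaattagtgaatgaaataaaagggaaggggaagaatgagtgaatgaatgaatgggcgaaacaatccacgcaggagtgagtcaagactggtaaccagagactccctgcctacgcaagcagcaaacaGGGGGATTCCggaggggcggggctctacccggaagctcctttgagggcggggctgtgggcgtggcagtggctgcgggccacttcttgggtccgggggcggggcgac
Rel, chr11:23770970-23771219, minus strand: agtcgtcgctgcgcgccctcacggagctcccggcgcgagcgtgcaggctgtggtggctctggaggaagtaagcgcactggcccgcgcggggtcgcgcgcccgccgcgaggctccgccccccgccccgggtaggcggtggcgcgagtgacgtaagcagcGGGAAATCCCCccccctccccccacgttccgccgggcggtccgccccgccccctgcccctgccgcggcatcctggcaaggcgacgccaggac

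The kappaB consensus was searched on both strands. It matched in 7 of the 10 windows and in 5 of the 7 members, and in 4.51% of all 32851 RefSeq windows of the same length. The windows of Nfkb2 lie close together, and 2 of them share a match, so they are not separate observations. In Nfkbia the match GGAAATTCCC lay 29 to 20 bases before the start. In Nfkbie GGGGGATTCC lay 106 to 97 bases before it. In Rel the overlapping matches GGGAAATCCC and GGAAATCCCC spanned 92 to 82 bases before it. Nfkb2 held GGGAATTCCC from 39 to 30 bases before its upstream start, and Tnfaip3 held GGAAATCCCC from 12 to 3 bases before a start. The single windows of Rela and Nfkbib and the other window of Tnfaip3 held no match. The looser pattern GGGNNNNNCC was present in 50.8% of all windows. GC content ran from 47.0% to 75.0% in the members' windows, with a median of 52.7% over all windows. A match is a description of the letters and not evidence of binding.

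The deposited values behave like a length- and depth-normalised abundance, but neither the headers nor the labels name the unit, so they are given as deposited values. Library sums ran from 321532 to 386023, with 8803 to 10145 genes at a value of at least 1. All 8 macrophage markers examined, among them Adgre1, Csf1r and Cd68, were at least 1 in every library. Markers of B cells, T and NK cells, erythroid cells and mast cells were under 1 in every library. Ccl5, a chemokine gene used here to check the LPS labels, was between 0.419 and 0.645 in the untreated libraries of the fatty acid table and between 3102 and 7141 in its 9 LPS-treated libraries. In the Western diet table it went against the label in 4 libraries, as given with the Western diet results.

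**Figure D1:**
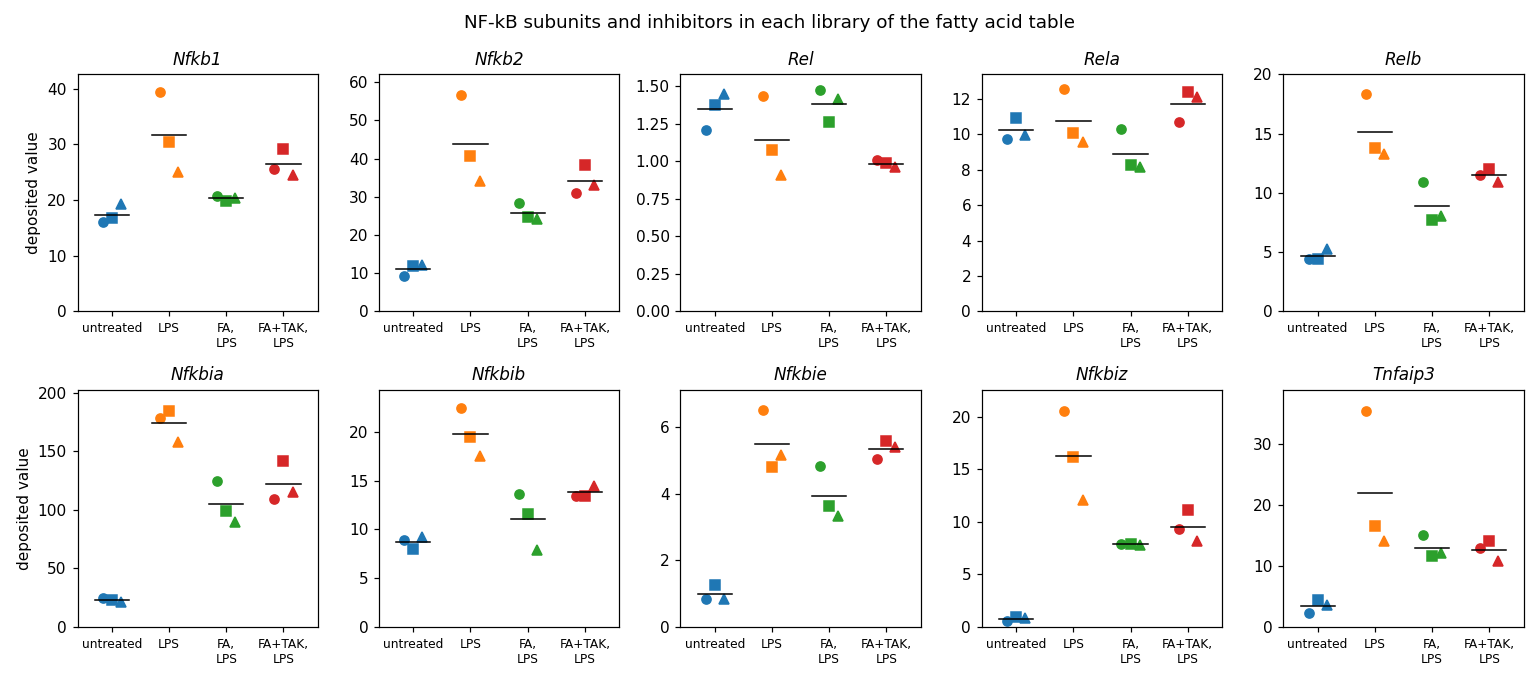
Deposited value of each gene (vertical axis, from 0) in the 12 libraries of the fatty acid table, by group (horizontal axis); FA is fatty acid and TAK is TAK242. Circles, squares and triangles are replicates 1, 2 and 3, and black lines are group means. The 3 LPS libraries of Nfkbia, at 158 to 185, stand above all others, while the groups of Rela overlap between untreated and LPS.

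LPS raised 8 of the 10 transcripts: all 5 inhibitors and the subunits Nfkb1, Nfkb2 and Relb. Rel and Rela did not pass the test. Nfkbiz had the highest fold, from a mean of 0.765 ± 0.181 in untreated cells to 16.3 ± 4.21 with LPS (SD, n = 3), and Nfkbia had the highest level, from 23.0 ± 1.43 to 174 ± 14.1. A gene was called when the adjusted p of limma, fitted on log2(value + 1) over all 12 libraries with Benjamini-Hochberg adjustment over 10476 genes, was under 0.05. By that rule 13.8% of all genes tested were called higher with LPS, and the median log2 change of the 10 members was 1.60. The groups did not overlap for the same 8 members, against 65.1% of all genes in either direction.

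Among the inhibitors, Nfkbia (IkB alpha, the main brake on dimers that hold Rela) was at 24.4, 23.0 and 21.6 in untreated replicates 1 to 3 and at 179, 185 and 158 with LPS. Its log2 change was 2.86 (SE 0.13, limma adjusted p = 2.0e-08), a ratio of group means of 7.56. The LPS replicates stayed within a narrow band far above the untreated cells. Nfkbiz was at 0.567, 0.922 and 0.807 in untreated cells and at 20.5, 16.2 and 12.1 with LPS, a ratio of means of 21.3. On the log2(value + 1) scale it rose by 3.27 (SE 0.17, limma adjusted p = 3.77e-08). That scale understates the change of a gene whose untreated values are under 1, and Nfkbiz passed the filter on low values (at least 1 in 3 libraries) through its LPS-treated libraries only.

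Tnfaip3 was at 2.24, 4.37 and 3.59 in untreated cells and at 35.4, 16.6 and 14.1 with LPS. Its log2 change was 2.31 (SE 0.29, limma adjusted p = 4.9e-05). LPS replicate 1 held the highest value of the 12 libraries, and the change without it was 1.92. Nfkbie, which encodes IkB epsilon, was at 0.851, 1.26 and 0.847 in untreated cells and at 6.51, 4.81 and 5.17 with LPS (log2 change 1.71, limma adjusted p = 1.26e-06). Its ratio of group means was 5.57, so the log2(value + 1) scale understates this change too. Only untreated replicate 2 was at 1 or more, so Nfkbie also needed treated libraries to pass the filter. Nfkbib, which encodes IkB beta, went from 8.92, 8.02 and 9.19 to 22.4, 19.4 and 17.5 (log2 change 1.09, limma adjusted p = 0.000141). For both genes every LPS library lay above every untreated one. Nfkbib overlaps Sirt2 on the opposite strand by 42 exonic bases and Ccer2 by 314, and the sources used here do not say whether counting used strand, so its values carry that uncertainty. Sirt2, with 29.3 to 66.1 over the 12 libraries, was the more abundant neighbour, and Ccer2 was at most 0.345.

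Among the subunits, Nfkb2 changed most. It was at 9.20, 11.9 and 12.1 in untreated cells and at 56.8, 40.6 and 34.0 with LPS (log2 change 1.87, SE 0.17, limma adjusted p = 4.03e-06). The exons of Nfkb2 overlap Psd and the noncoding AC114539.1 on the opposite strand. Relb, whose product pairs mainly with the Nfkb2 product, rose with it, from 4.45, 4.38 and 5.23 to 18.4, 13.8 and 13.3 (log2 change 1.49, limma adjusted p = 5.36e-06). Nfkb1 was at 16.1, 16.7 and 19.3 in untreated cells and at 39.4, 30.4 and 25.1 with LPS (log2 change 0.81, SE 0.14, limma adjusted p = 0.000499). All 3 genes kept their groups apart, with replicate 1 the highest LPS library for each.

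Rela, the classical transactivating partner of the Nfkb1 product, was at 9.74, 10.9 and 9.99 in untreated cells and at 12.5, 10.1 and 9.55 with LPS. The groups overlapped, and the log2 change was 0.06 with a 95% interval from -0.20 to 0.32 (limma adjusted p = 0.691). This result depended on the scaling. The median of all genes tested was -0.31 with LPS on the deposited values and 0.01 after median-ratio scaling between libraries, and the genes called higher went from 1444 to 2847 while those called lower went from 5019 to 2822. Relative to that shift Rela was higher with LPS, by 0.41 (limma adjusted p = 0.00796), which brought the members called higher to 9 beside 27.2% of all genes. Rel, whose product c-Rel is the lymphoid-enriched subunit, stayed close to the filter of 1: 1.21, 1.38 and 1.45 in untreated cells and 1.44, 1.08 and 0.910 with LPS. Its log2 change was -0.14 (limma adjusted p = 0.214), and without LPS replicate 1 it was called lower, at -0.24 (limma adjusted p = 0.0255).

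The members differed widely in their spread over the 12 libraries. On the log2(value + 1) scale the distance from the lowest to the highest library was 3.78 for Nfkbiz, 3.49 for Tnfaip3, 3.04 for Nfkbia and 2.50 for Nfkb2. It was 2.02 for Nfkbie, 1.85 for Relb, 1.40 for Nfkbib and 1.24 for Nfkb1, and least for Rela at 0.56 and Rel at 0.38. LPS replicate 1 held the highest value of its group for 9 of the 10 members, Nfkbia being the exception. Markers of other cells moved too. Summed stromal markers were 7.85 to 15.8 in untreated libraries and 24.9 to 54.8 with LPS, and each of the 5 stromal markers that passed the filter, of 6 on the list, was called higher. Summed neutrophil markers were 32.9 to 47.7 and 117 to 383, of which S100a8 and Camp were called higher (Camp, like the stromal Dcn, was under 1 in every untreated library) while Ly6g and Retnlg were at 0 in every LPS library. The part of these cells in the members' changes was not tested, and in bulk libraries fewer cells of a type and less RNA per cell cannot be told apart.

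Genes of the same pathway were taken from lists. Of all genes tested, 13.8% were called higher and 47.9% lower with LPS. After scaling, 2847 of the 10476 were called higher and 2822 lower. Of the 21 tested kinases and adaptors upstream of NF-kB, 8 were called higher and 5 lower with LPS, and 11 higher and 2 lower after scaling. They included Irak3, a brake on receptor signalling (log2 change 2.74), Ikbke, an IkB kinase relative (1.47), the adaptor Myd88 (1.29) and Map3k8, the kinase that the Nfkb1 precursor holds inactive (0.85). Of the 9 tested genes of the noncanonical arm, through which Nfkb2 is processed, 7 were higher and none lower, among them Cd40 at 3.12 and Birc3 at 2.57. Of 13 other IkB proteins and A20 partners, 6 were higher and 2 lower, and 7 and 1 after scaling, with Zc3h12a at 2.11, Tnip1 at 1.95, Tnip3 at 1.65 and Bcl3 at 1.45. Of 29 known NF-kB target genes, 25 were higher and 3 lower, with a median log2 change of 2.72, and 10 of the 29 were under 1 in every untreated library, so those passed the filter through treated libraries only. Sod2, a mitochondrial antioxidant enzyme, was at 10.9, 10.6 and 10.6 in untreated cells and at 349.8, 331 and 309.9 with LPS. Plau, a protease gene on that list, fell, from 87.3, 95.5 and 74.6 to 5.61, 6.49 and 7.26. Of the 7 listed genes known to need IkB zeta, 5 passed the filter. Lcn2 was higher by 8.69. Cebpd was not called, at 1.34, 1.30 and 1.59 in untreated cells and at 0.986, 2.05 and 1.09 with LPS. Il6, Csf3 and Il12b, at 3.76, 3.26 and 1.91, were under 1 in every untreated library and passed through treated libraries only, so a count over these genes is not given.

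**Figure D2:**
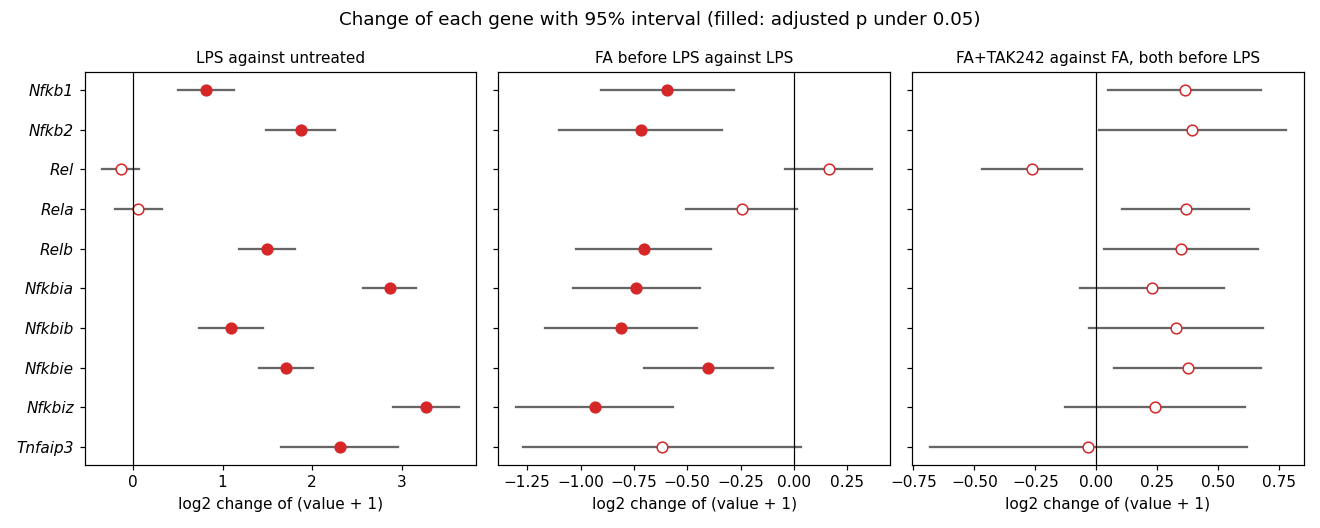
Log2 change of each gene on the log2(value + 1) scale (horizontal axes, whose ranges differ) with its 95% interval, for LPS against untreated, fatty acid before LPS against LPS, and fatty acid with TAK242 against fatty acid, both before LPS. Filled points have a limma adjusted p under 0.05: 8 genes in the left panel, 7 in the middle and 0 in the right.

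Fatty acid before LPS, set against LPS alone, went with lower levels of 7 of the 10 members: Nfkb1, Nfkb2, Relb, Nfkbia, Nfkbib, Nfkbie and Nfkbiz. The changes ran from -0.40 for Nfkbie to -0.93 for Nfkbiz, so each transcript was at 0.483 to 0.715 of its mean with LPS alone. Of all genes tested, 15.3% were called lower, and the median log2 change was 0.06 over all genes and -0.66 over the members. The groups did not overlap for 6 members, against 51.3% of all genes. No member was called higher, beside 21.8% of all genes.

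Nfkbiz was at 7.90, 7.91 and 7.77 in the cells with fatty acid before LPS, against 20.5, 16.2 and 12.1 with LPS alone (log2 change -0.93, SE 0.17, limma adjusted p = 0.00231). The 3 fatty acid libraries were nearly equal and lay below the lowest LPS library. Nfkbia was at 125, 99.2 and 89.6 against 179, 185 and 158 (log2 change -0.74, limma adjusted p = 0.00247). Nfkbib was at 13.7, 11.6 and 7.87 against 22.4, 19.4 and 17.5 (log2 change -0.81, limma adjusted p = 0.00362). Fatty acid replicate 3 was below the lowest untreated one. Nfkbie was at 4.82, 3.64 and 3.33 against 6.51, 4.81 and 5.17. Its groups overlapped, with fatty acid replicate 1 just above LPS replicate 2, and its log2 change of -0.40 (limma adjusted p = 0.0402) lost the call in 8 alternative fits, among them those without LPS replicate 1 (-0.29, limma adjusted p = 0.129) and without fatty acid replicate 3 (-0.31, limma adjusted p = 0.138).

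Tnfaip3 was at 15.0, 11.7 and 12.1 with fatty acid before LPS. Its LPS replicates, at 35.4, 16.6 and 14.1, reached into that range, and the log2 change of -0.62 did not pass the test (limma adjusted p = 0.122). Without LPS replicate 3 it passed, at -0.87 (limma adjusted p = 0.04). Leaving out each library in turn, the change ran from -0.87 to -0.23, the weakest being without LPS replicate 1, its highest library.

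Of the subunits, Relb was at 10.9, 7.74 and 8.06 against 18.4, 13.8 and 13.3 with LPS alone (log2 change -0.70, SE 0.14, limma adjusted p = 0.00405). Nfkb2 was at 28.3, 24.7 and 24.1 against 56.8, 40.6 and 34.0 (log2 change -0.72, limma adjusted p = 0.00901). Nfkb1 was at 20.8, 19.8 and 20.3 against 39.4, 30.4 and 25.1 (log2 change -0.59, limma adjusted p = 0.00867). All 3 had every fatty acid library below every LPS library. Rela was at 10.3, 8.25 and 8.16, overlapping the LPS libraries (log2 change -0.24, limma adjusted p = 0.126), and after median-ratio scaling it was called lower, at -0.31 (limma adjusted p = 0.0438). With it 8 members were lower, beside 19.9% of all genes. Rel was at 1.48, 1.26 and 1.42 (log2 change 0.16, limma adjusted p = 0.188), and without LPS replicate 1 it was called higher, at 0.26 (limma adjusted p = 0.0312).

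The other pathway genes went both ways. Of all genes tested, 21.8% were called higher and 15.3% lower with fatty acid before LPS. Of the 21 kinases and adaptors, 4 were higher and 1 lower, and the higher count is near the share over all genes. Map3k8 was at 8.62, 8.55 and 8.70 with LPS alone and at 13.4, 13.1 and 12.5 with fatty acid before LPS (log2 change 0.54), while Irak2, an activating kinase of the receptor complex, was lower by a log2 change of -0.87. Tbk1 and Chuk, an IkB kinase relative and the catalytic IkB kinase alpha, were higher by 0.48 and 0.32. Of 9 noncanonical genes, 2 were higher, Birc2 and Tnfrsf11a, and 2 lower, Tnfrsf1b and Traf3, again near the shares over all genes. Of 13 other IkB proteins and A20 partners, 5 were lower, among them Tnip1 at -0.77, Nfkbil1 at -0.75 and Zc3h12a at -0.69, and the ubiquitin ligase gene Itch was higher at 0.73.

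Of the 29 target genes, 17 were lower and 3 higher, with a median of -0.87. Of these 29, 10 were under 1 in every untreated library and passed the filter through treated libraries. Where a gene passed through its libraries with LPS alone, the filter itself favours a lower value here. The count and the median are therefore given as a description. The apoptosis inhibitor gene Bcl2a1a was at 7.62, 7.69 and 5.92 against 19.9, 17.5 and 14.4. Il1b, the interleukin 1 beta gene, was at 45.1, 30.7 and 28.2 against 1987, 543 and 262. Among the genes known to need IkB zeta, Il12b was at 0.211, 0.179 and 0.114 against 3.52, 3.36 and 1.801, and Il6 was at 0.471, 0.170 and 0.191 against 40.3, 10.99 and 4.11. Both were under 1 in all libraries with fatty acid before LPS and passed the filter through the other groups. In these genes too LPS replicate 1 was the highest library. Summed stromal markers were 9.31 to 12.6 with fatty acid before LPS, and 4 of 5 tested were called lower. Summed neutrophil markers were 78.2 to 87.9, and 2 of 4 tested were called lower. The part of either in these results was not tested.

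With TAK242 during the fatty acid pretreatment, 8 of the 10 transcripts had higher means than with fatty acid alone, but none passed the test. limma called 0 members at an adjusted p under 0.05, beside 4.69% of all genes tested in either direction, and 6 members had an unadjusted p under 0.05 (Nfkb1, Nfkb2, Rel, Rela, Relb and Nfkbie), as did 2415 of the 10476 genes (23.1%). The groups did not overlap for 7 members, against 36.9% of all genes. The median change was 0.34 over the members and 0.00 over all genes.

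Rela had the smallest adjusted p, at 0.101 by limma. It was at 10.7, 12.4 and 12.1 with TAK242 against 10.3, 8.25 and 8.16 without, and its log2 change was 0.37 with a 95% interval from 0.11 to 0.63. Nfkb1 was at 25.7, 29.3 and 24.5 against 20.8, 19.8 and 20.3 (log2 change 0.36, interval 0.05 to 0.68). Nfkb2 was at 30.9, 38.4 and 33.1 against 28.3, 24.7 and 24.1 (log2 change 0.39, interval 0.01 to 0.78). Each of these genes had all TAK242 libraries above all libraries with fatty acid alone. When the fit used only the 6 libraries compared, Nfkb1 was the single member called (limma adjusted p = 0.0439).

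Relb was at 11.5, 11.98 and 10.9 against 10.9, 7.74 and 8.06, with the lowest TAK242 library barely above the highest other one (log2 change 0.35). Rel went the other way, at 1.01, 0.988 and 0.961 against 1.48, 1.26 and 1.42 (log2 change -0.26, interval -0.47 to -0.06, limma adjusted p = 0.123). Its TAK242 libraries agreed closely and lay below all others of that comparison. The inhibitors were more mixed. Nfkbie was at 5.04, 5.58 and 5.40 against 4.82, 3.64 and 3.33 (log2 change 0.37), and Nfkbiz was at 9.32, 11.1 and 8.14 against 7.90, 7.91 and 7.77 (log2 change 0.24), both without overlap. Nfkbia was at 109, 142 and 115 against 125, 99.2 and 89.6 (log2 change 0.23, interval -0.07 to 0.52), and Nfkbib was at 13.4, 13.5 and 14.5 against 13.7, 11.6 and 7.87. Tnfaip3 was at 13.0, 14.2 and 10.8, overlapping the libraries without TAK242 with replicate 3 below all of them, at a log2 change of -0.03 and an interval from -0.68 to 0.62. The intervals of Nfkbia, Nfkbib, Nfkbiz and Tnfaip3 held 0.

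Few other pathway genes passed in this comparison. Map3k8 was lower with TAK242, at 8.24, 8.75 and 9.28 against 13.4, 13.1 and 12.5 (log2 change -0.52, limma adjusted p = 0.00523), the single call among 21 kinases and adaptors. Ltbr, a receptor of the noncanonical arm, was higher by 0.42. Ier3, an early response gene, was at 5.36, 7.52 and 6.03 against 2.91, 1.90 and 1.19 and was the 1 of 29 target genes called. Il12b, of the genes known to need IkB zeta, was at 1.79, 2.53 and 1.64 against 0.211, 0.179 and 0.114 (limma adjusted p = 0.00338). It was under 1 in every untreated library and in every library with fatty acid alone before LPS. Il12b thus passed the filter only through the groups where it was high, and its call is given as a description. Summed stromal markers were 20.3 to 24.65 with TAK242, and Col1a1 and Col1a2 were called higher. Neutrophil sums, at 63.45 to 86.9, held no called marker. Their part was not tested.

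Set directly against LPS alone, the cells with fatty acid and TAK242 differed in 1 member. Nfkbiz was lower by a log2 change of -0.69 (SE 0.17, limma adjusted p = 0.042), where 1.84% of all genes were called lower. Nfkbia was just short of the threshold, at -0.51 (limma adjusted p = 0.0508), and Nfkbib was at -0.49 (0.0845). The Nfkbiz call was lost without LPS replicate 1 or 2 and without any of the 3 TAK242 replicates, so the number of members called lay between 0 and 2, and without TAK242 replicate 2 the member called was Nfkbia. LPS replicate 3 left out gave 2, Nfkbiz and Nfkbia. After median-ratio scaling 3 members were called lower (Nfkbiz, Nfkbia and Nfkbib), beside 5.33% of all genes. Over all genes, that scaling moved the genes called higher from 424 to 453 and those called lower from 193 to 558. Of the 29 target genes, 6 were lower, among them Ccl4, Sod2, Ier3 and Ccl3, and 12 after scaling. The filter bears on these counts as it does with fatty acid before LPS, so they are a description. Nfkbil1, an IkB-like gene, was lower by a log2 change of -0.65, and Birc2 and Rnf31, ubiquitin ligase genes of the pathway, were higher by 0.45 and 0.44. Markers of other cells were lower in the same comparison: the stromal Col3a1 by a log2 change of -0.92 (limma adjusted p = 0.0293) and the neutrophil Camp by -1.02 (0.0319), and after scaling 2 stromal and 2 neutrophil markers. Their part was not tested.

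Both pretreated groups were still far from untreated cells. With fatty acid before LPS, 6 members were higher than in untreated cells, where 15.2% of all genes were called higher. They were Nfkbiz (log2 change 2.33), Nfkbia (2.12), Tnfaip3 (1.69), Nfkbie (1.31), Nfkb2 (1.15) and Relb (0.79). Nfkb1 was at 0.22 (limma adjusted p = 0.21) and Nfkbib at 0.28 (0.152). Both passed after median-ratio scaling, at 0.52 (limma adjusted p = 0.0124) and 0.57 (0.00874), which brought the members called higher to 8 beside 27.3% of all genes, where the median of all genes was -0.26 before scaling and the calls over all genes moved from 1591 higher and 4704 lower to 2858 and 3052. In the group that also received TAK242, 8 members were higher than in untreated cells, beside 14.1% of all genes, now with Nfkb1 (0.58, limma adjusted p = 0.00475) and Nfkbib (0.61, 0.00734). Rel was called lower, at -0.24 (limma adjusted p = 0.0441), beside 43.9% of all genes, a call lost in 8 alternative fits, among them median-ratio scaling (-0.07, limma adjusted p = 0.574). The same scaling added a call for Rela, higher by 0.46 (limma adjusted p = 0.00429), so that 9 members were higher beside 25.8% of all genes. It moved the calls over all genes from 1482 higher and 4600 lower to 2706 and 2797. These comparisons share the untreated libraries with the LPS comparison, so their calls are not independent of it. That Nfkb1 passed with TAK242 and not with fatty acid alone is no test of a difference, and the direct comparison of those groups did not pass.

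**Figure D3:**
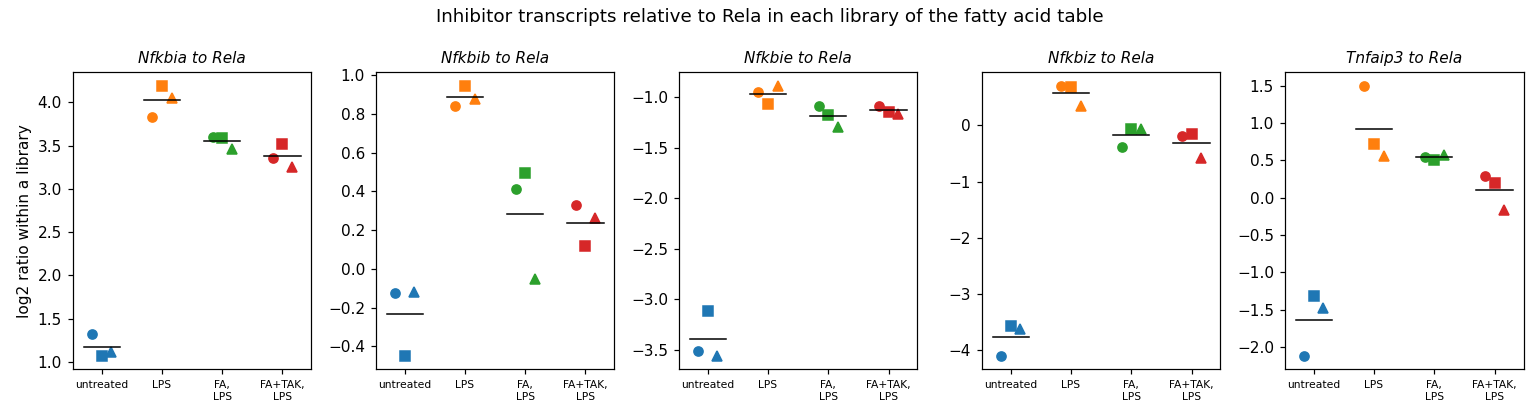
Log2 ratio of each inhibitor transcript to Rela in the same library (vertical axes, whose ranges differ) for the 12 libraries of the fatty acid table by group (horizontal axis). Circles, squares and triangles are replicates 1, 2 and 3 and black lines are group means. The Nfkbia to Rela ratio rose from a mean of 1.17 in untreated libraries to 4.02 with LPS and was 3.55 with fatty acid and 3.38 with fatty acid and TAK242.

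The ratio of an inhibitor to Rela within a library does not move with the scaling of that library, so it gives a view of the inhibitors free of the shift described for all genes. The deposited Nfkbia value was 2.51, 2.10 and 2.16 times that of Rela in untreated libraries and 14.2, 18.3 and 16.5 times with LPS. With fatty acid before LPS it was 12.1, 12.03 and 10.98 times, and with TAK242 as well it was 10.2, 11.5 and 9.52 times. All 3 LPS libraries thus lay above all pretreated ones. The differences in mean log2 ratio between LPS and untreated were 4.34 for Nfkbiz, 2.85 for Nfkbia, 2.56 for Tnfaip3, 2.43 for Nfkbie and 1.12 for Nfkbib, each without overlap. Between fatty acid before LPS and LPS alone they were -0.75 for Nfkbiz, -0.60 for Nfkbib, -0.48 for Nfkbia and -0.22 for Nfkbie, again without overlap, and -0.38 with overlap for Tnfaip3.

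With TAK242 the ratios differed little from those with fatty acid alone, from 0.06 for Nfkbie to -0.17 for Nfkbia. The exception was Tnfaip3 at -0.44, where the groups did not overlap. The log2 change of Tnfaip3 itself was -0.03, while Rela was higher by 0.37, and neither passed the test. That lower ratio thus lies mostly in its denominator, and the other ratios share the same higher Rela. With 3 libraries against 3, the smallest p that a two-sided exact permutation test can give is 0.1. It was reached by all 5 inhibitors with LPS, by the 4 without overlap with fatty acid, and by Tnfaip3 with TAK242, and the adjusted value over the 15 ratios tested was 0.15, so no ratio could pass 0.05 in this design. The choice of Rela mattered for size. With Nfkb1 as the denominator the LPS differences were smaller, such as 3.56 for Nfkbiz and 0.34 for Nfkbib, and the fatty acid difference of Nfkbie changed sign, to 0.13.

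In the Western diet table the labels and the LPS-responsive genes went apart. Ccl5 was at 2.06, 2.38 and 1.57 in the chow controls, at 7846, 13.7 and 10973 in replicates 1 to 3 of the libraries labelled untreated Western diet, and at 0.463, 10.5 and 6905 in those labelled Western diet with LPS. Over 2129 genes that changed at least 2-fold with LPS in chow cells, the slope of each library's difference from the chow controls on the chow LPS change was 0.968, 0.0565 and 0.989 for the libraries labelled untreated, and -0.110, -0.0931 and 0.720 for those labelled LPS. Replicates 1 and 3 of the former and 1 and 2 of the latter thus went against their labels. The members are therefore given by library, and a direction between the labels rests on those 4 libraries.

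**Figure D4:**
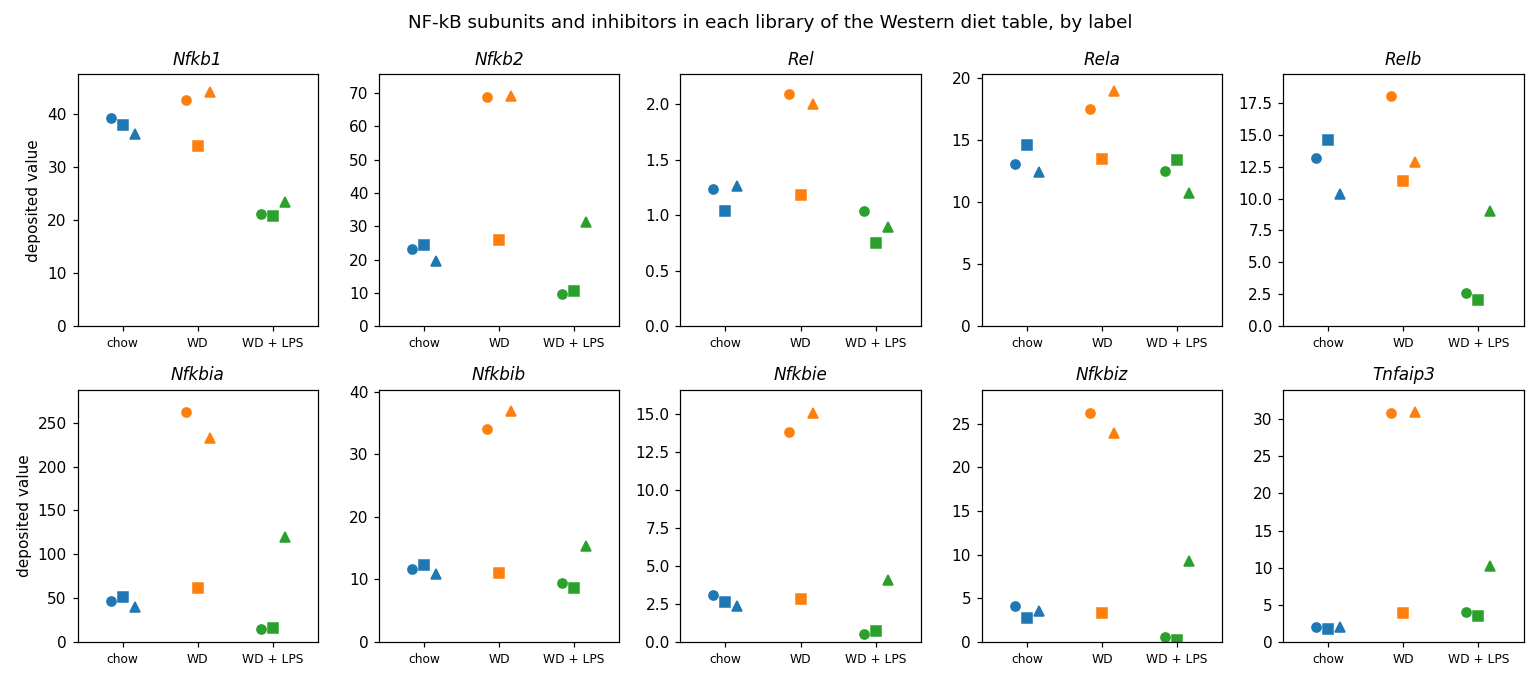
Deposited value of each gene (vertical axis, from 0) in the 9 libraries of the Western diet table, by label (horizontal axis); WD is Western diet. Circles, squares and triangles are the first, second and last replicate of a group (4, 5 and 6 for chow). Replicates 1 and 3 of the libraries labelled untreated Western diet stand high for Nfkbia, at 262 and 233, while replicate 2 is at 60.9 beside chow controls at 39.3 to 50.8.

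The libraries labelled untreated Western diet did not form one level. In replicate 1 all 10 members were above every chow control, in replicate 3 it was 9 with Relb within the chow range, and in replicate 2 it was 3 (Nfkb2, Nfkbia and Tnfaip3), with Nfkb1 below. The share of all genes outside the chow range was not computed for single libraries. These counts are therefore a description and cannot be set against the typical gene. Nfkbiz was at 26.2, 3.27 and 24.0 in replicates 1 to 3, against 4.09, 2.72 and 3.58 in chow controls. Tnfaip3 was at 30.8, 3.85 and 30.9, against 2.04, 1.77 and 1.93. Replicates 1 and 3 were alike in both genes, and replicate 2 was close to the chow controls for Nfkbiz and above them for Tnfaip3. Nfkbie was at 13.8, 2.85 and 15.1 against 3.10, 2.65 and 2.36, and Nfkbib was at 34.0, 11.04 and 37.0 against 11.6, 12.2 and 10.9. These genes, like Nfkbia at 262, 60.9 and 233, had replicates 1 and 3 far above replicate 2. Of the subunits, Nfkb2 was at 68.8, 25.7 and 69.0 against 23.2, 24.2 and 19.7. Rel was at 2.10, 1.19 and 2.003, Rela at 17.6, 13.5 and 19.0, and Nfkb1 at 42.8, 34.0 and 44.2, so replicate 2 was again the lowest over a narrower range. Relb was at 18.0, 11.4 and 12.9, with replicate 3 inside the chow range.

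The libraries labelled Western diet with LPS split as well. In replicates 1 and 2, 7 and 8 members were below every chow control, and only Tnfaip3 was above, at 4.00 and 3.45. Nfkbiz was at 0.564, 0.186 and 9.23 in replicates 1 to 3, Nfkbia at 15.0, 16.2 and 120, and Nfkbie at 0.534, 0.707 and 4.06. In replicate 3, 6 members were above every chow control (Nfkb2 and all 5 inhibitors) and the other 4 were below. Here too no share over all genes was computed beside the counts. Nfkb1, at 21.2, 20.8 and 23.5 against 39.3, 38.0 and 36.2 in chow controls, was low in all 3, and so was Relb, at 2.62, 2.09 and 8.99 against 13.2, 14.6 and 10.4. Within that label replicate 3 was the highest for both, by a wide margin for Relb and a narrow one for Nfkb1. Rela was at 12.5, 13.4 and 10.7 and Rel at 1.04, 0.754 and 0.891. Nfkb2 was at 9.63, 10.7 and 31.3 and Nfkbib at 9.37, 8.55 and 15.3, again with replicate 3 the highest. Summed stromal markers were 0.220 to 1.20 in chow controls, 4.14 to 7.94 in the libraries labelled untreated Western diet and 2.03 to 3.40 in those labelled LPS. Summed neutrophil markers were 33.6 to 53.2, 25.3 to 70.5 and 73.3 to 79.3 in the same order, and 2 of the 4 tested were called higher with the LPS label after median-ratio scaling. Summed macrophage markers were 10210 to 12030, 5847 to 15420 and 9469 to 11630. The part of these in the members' values was not tested. The widest range over the 9 libraries belonged to Nfkbiz, whose highest value was 141 times its lowest.

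By label, limma called 0 members for untreated Western diet against chow, beside 0.232% of all genes, and 0 for Western diet with LPS against without, beside 0.958%. At an unadjusted p under 0.05 there were 2 in the former (Tnfaip3 and Nfkbib), beside 27.3% of all genes, and 8 in the latter, beside 17.2%. The members' median log2 change was 1.06 and -1.53. Leaving out a single library turned this: without replicate 2 of those labelled untreated Western diet, 8 members were called higher than chow (all but Nfkb1 and Relb), beside 12.1% of all genes called higher, and 10 were called lower with the LPS label, beside 9.72% of all genes called lower. Without replicate 3 of those labelled LPS, 6 were called lower, beside 2.19%. In each of these fits the libraries left under the reduced label went against it: replicates 1 and 3 labelled untreated, or 1 and 2 labelled LPS. The counts therefore rest on those libraries and are a description. With the 4 libraries that went against their labels left out, each Western diet group keeps 1 library, so the changes are given as a description. With the LPS label they were 1.26 for Nfkbiz, 1.21 for Tnfaip3, 0.97 for Nfkbia, 0.43 for Nfkbib, 0.40 for Nfkbie and 0.27 for Nfkb2, and below 0 for the other 4 members. The libraries were left out for their LPS-responsive genes, which include 7 of the 10 members, so the choice bears on these directions and they support nothing.

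The chow controls of the 2 tables, both labelled untreated, also differed in level. Mean Nfkbiz was 3.46 ± 0.690 in the Western diet table and 0.765 ± 0.181 in the fatty acid table (SD, n = 3), Relb 12.7 ± 2.13 and 4.69 ± 0.473, and Nfkb1 37.8 ± 1.51 and 17.4 ± 1.70. Tnfaip3 went the other way, at 1.92 ± 0.133 and 3.40 ± 1.07. Only Rel overlapped between the tables. The tables may have been normalised separately, so no test was made across them.

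The genes whose values followed a member most closely were sought over the 12 libraries of the fatty acid table, for the 4 members with the widest range. By Pearson's r on log2(value + 1), Nfkbiz was nearest to Gpr84 (0.996), Pde4b (0.995) and F10 (0.994), and Nfkbia to Rnaset2a (0.996), F10 (0.996) and Ly6c2 (0.996). Nfkb2 was nearest to Cpd (0.994), Zc3h12a (0.992) and Bmp1 (0.991). Tnfaip3 was nearest to Slc39a14 (0.981), Pvr (0.981) and Skil (0.980). The libraries include 3 untreated ones that stand apart from the other 9, so r carries the difference between those groups, and it is given as a description without a p.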

How the data were processed

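RNA-seq of 21 libraries was analysed from 2 tables of deposited gene values, 1 value per gene and library. The authors' unit is not named per the file headers or the labels; the values behave like a length-normalised abundance and are used as unnamed deposited values, so no count model was run and sequencing depth is unknown. The submitters' processing notes list HISAT2 2.0.5, Trim Galore 0.4.1, FastQC 0.11.5 and CASAVA 1.8.2, and the builds mm10 and mm9, without roles; the quantification step is not given in the sources used here. Entries with displaced columns were left out (36 in the fatty acid table, 35 in the Western diet table).

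Each table was fitted separately with limma 3.58.1 (R 4.3.3, trend) on log2(value + 1) for genes at 1 or more in at least 3 libraries (10476 and 10331 genes), all libraries sharing the spread, with Benjamini-Hochberg adjustment and a threshold of 0.05. All 10 members passed the filter in both tables. Ratios within a library were compared by exact permutation (Python 3.11.15). The fit was tested on simulated data. Alternatives were no filter, a minimum of 5, a pseudocount of 0.1, median-ratio scaling, only the libraries compared, a replicate block and leaving out each library.

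The members and gene lists were chosen with earlier results of these data known. All members were named in each comparison; of every other list, at most the 4 called genes with the smallest adjusted p in a comparison; and for the 4 members with the widest range, the 3 genes with the highest r. Cebpd was named outside this rule, as a tested gene that was not called. Gene positions follow the files and GENCODE M21 (GRCm38).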

Additional observations from a re-analysis of the deposited data

Results flagged for a closer look

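Nfkb1 and Relb moved in opposite directions with the LPS label in the 2 donor diets. In chow cells every LPS library was above every untreated one, while every library labelled Western diet with LPS was below every library labelled untreated Western diet, by a log2 change of -0.85 for Nfkb1 and -1.63 for Relb. The other members called higher with LPS in chow cells also had lower means with the Western diet LPS label. Their log2 changes ran from -1.10 for Nfkbib to -2.42 for Nfkbiz, but the libraries of the 2 labels overlapped. The difference between the diets was not tested, the diets lie in separate tables, and 4 of the 6 Western diet libraries went against their labels by Ccl5. With those 4 left out the changes were -0.51 for Nfkb1 and -0.31 for Relb, with 1 library per Western diet group and so given without a test.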

How the results depend on the processing

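The deposited values give no depth, so a change in a gene near the filter of 1, such as Rel, cannot be set against counting error. The "no filter" alternative used genes above 0 in at least 1 library. Over the 8 comparisons, 875 of 960 alternative values of single members kept direction and side of the threshold, 41 gained a call and 24 lost it. The sign changed in the other 20, 17 of them without a call in either fit, and 10 of the 20 lay in the fits without the 4 libraries that went against their labels. For LPS against untreated 8 or 9 members were called in every alternative, and for fatty acid before LPS against LPS 6 to 8. For TAK242 with fatty acid against fatty acid, 1 member was called with only the 6 libraries compared and 0 in each fit without a replicate (0 to 0). For fatty acid with TAK242 against LPS, with 1 member in the reported fit, the count was 0 without a filter, 2 at a minimum of 5, 0 with only the 6 libraries compared, 0 at a pseudocount of 0.1, 3 after median-ratio scaling, and 0 to 2 leaving out each replicate. For untreated Western diet against chow by label it was 0 to 8 leaving out each replicate. For Western diet with LPS against without it was 1 without a filter (Nfkb1) and 0 to 10 leaving out each replicate. Both upper ends came without replicate 2 labelled untreated Western diet, which leaves under that label only libraries that went against it. The fit without the 4 libraries that went against their labels keeps 1 library per Western diet group, so only changes are given. The choice of libraries bears on their direction. In that fit 6 members changed sign with the LPS label: Nfkbia to 0.97, Nfkbiz to 1.26, Tnfaip3 to 1.21, and also Nfkb2, Nfkbib and Nfkbie. With the diet label 4 did so (Nfkb1, Relb, Nfkbib and Nfkbiz). The Nfkbie to Rela difference with fatty acid became 0.13 with Nfkb1 as denominator. Beyond what construction shows (fewer samples or genes), the cause was not tested.

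Counts over all genes moved further. Those called with LPS fell from 6463 to 4303 at a minimum of 5, where fewer genes are tested. TAK242 with fatty acid against fatty acid gave 491, and 276 without a filter, 1110 with only the 6 libraries, 770 after scaling and 63 to 305 leaving out each replicate. Fatty acid with TAK242 against LPS gave 617, and 88, 2, 1011 and 1 to 1784. By label, untreated Western diet against chow gave 24, and 41 without a filter, 12 at a minimum of 5 and 8 to 5838 leaving out each replicate. Western diet with LPS against without gave 99, and 58 at a minimum of 5, 2 with only the 6 libraries and 206 after scaling. Leaving out each replicate gave 18 to 4086.

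In the fatty acid table same-numbered libraries did not deviate together: the correlations of their deviations from group means ran from -0.08 to 0.20 over 18 pairs. In the Western diet table they were -0.67, 0.68 and 0.76 for replicates 1, 2 and 3. Differently numbered pairs there ran from -0.79 to 0.74, so the check could not decide on pairing in that table. The numbers were not taken as a pairing in either table. A fit with the replicate block called 8, 6, 0, 2, 6 and 8 members in the 6 comparisons of the fatty acid table, in place of 8, 7, 0, 1, 6 and 9, and 0 with the LPS label in the Western diet table, where it called 0 of all genes.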
